A study of Mus musculus with 5 samples.

Results

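The G2/M and mitotic spindle genes are 50 genes listed by symbol for their work in mitotic entry, spindle building, chromosome segregation, and cytokinesis. The rule names genes by symbol and uses no measured value, although the list was chosen with earlier results of these data known. Each symbol was matched to an Entrez gene of the deposited tables, in which 17058 genes had a count. All 50 had counts, 49 passed the filter on low counts and were tested among 12576 genes, and 48 had at least 10 counts in every library. *Cdc25c*, a phosphatase that activates CDK1, was left untested, with 7 and 5 counts in WT replicates and 4, 6, and 8 counts in *Adam17*-/- replicates.

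The RNA came from bone marrow–derived macrophages (BMDMs) of Balb/c mice, grown out of marrow with M-CSF. They were cocultured for 48 hours with 4T1 cells, a mouse mammary carcinoma line, behind a porous membrane. In one group the 4T1 cells were WT (2 libraries), and in the other they lacked *Adam17*, which encodes a protease that sheds ligands and receptors from the cell surface (3 libraries). The knock-out was in the cancer cells and the sequenced macrophages were not edited, so the level of *Adam17* in them does not check the labels. All 3 *Adam17*-/- libraries carry the knock-out designation 2.8, so loss of *Adam17* and any other feature of that line cannot be told apart. The labels do not say whether replicates came from separate animals or cultures, so p-values measure the spread between these libraries, which may be technical.

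Cells enter mitosis when CDK1, bound to A- and B-type cyclins, is released from inhibition. A bipolar spindle then forms and captures chromosomes through kinetochores, and the spindle checkpoint holds back the anaphase-promoting complex (APC/C) until all are attached. Most of these genes are transcribed late in the cycle, through promoters with a cell cycle homology region (CHR) and CCAAT boxes, and macrophages keep some capacity to divide while M-CSF is present.

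About as many of the G2/M and spindle genes passed as higher in RNA of BMDMs cocultured with *Adam17*-/- 4T1 cells as did not pass, and 1 was lower. With the adjusted p limit at 0.05 (edgeR's quasi-likelihood test with Benjamini-Hochberg adjustment over all 12576 genes), 24 of the 49 tested rose, a share of 49.0% against a background of 14.9% of all genes tested. One gene fell, the checkpoint gene *Bub3*, where the background was 16.8%. The other 24 did not pass, and 22 of these had a positive log2 fold change. At a log2 fold change of 1 or more as well, 5 genes passed, *Knl1*, *Ncapg*, *Cenpf*, *Cenpa*, and *Kif11*, against 3.36% of all genes. The changes were modest, from 1.34-fold to 2.75-fold among the genes that rose. The median log2 fold change was 0.58, against 0.01 over all genes tested.

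Levels are given as CPM, counts scaled to the normalized library size. Summed over the 50 genes, the level came to 419 and 419 CPM in the WT libraries and 531, 571, and 549 CPM in the *Adam17*-/- libraries, with *Mki67* the largest single share. Without *Mki67* the sum was 319 and 313 CPM in the WT libraries and 397, 429.9, and 411 CPM in the *Adam17*-/- libraries. Every *Adam17*-/- library was above both WT libraries in both sums. This was also so for 30 of the 49 genes taken singly, against 28.4% of all genes tested, and 1 gene lay below in every library, against 29.7%. Taken library by library, the median gene stood 0.42, 0.64, and 0.56 above the WT mean on the log2 scale in *Adam17*-/- replicates 1, 2, and 3.

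**Figure D1:**
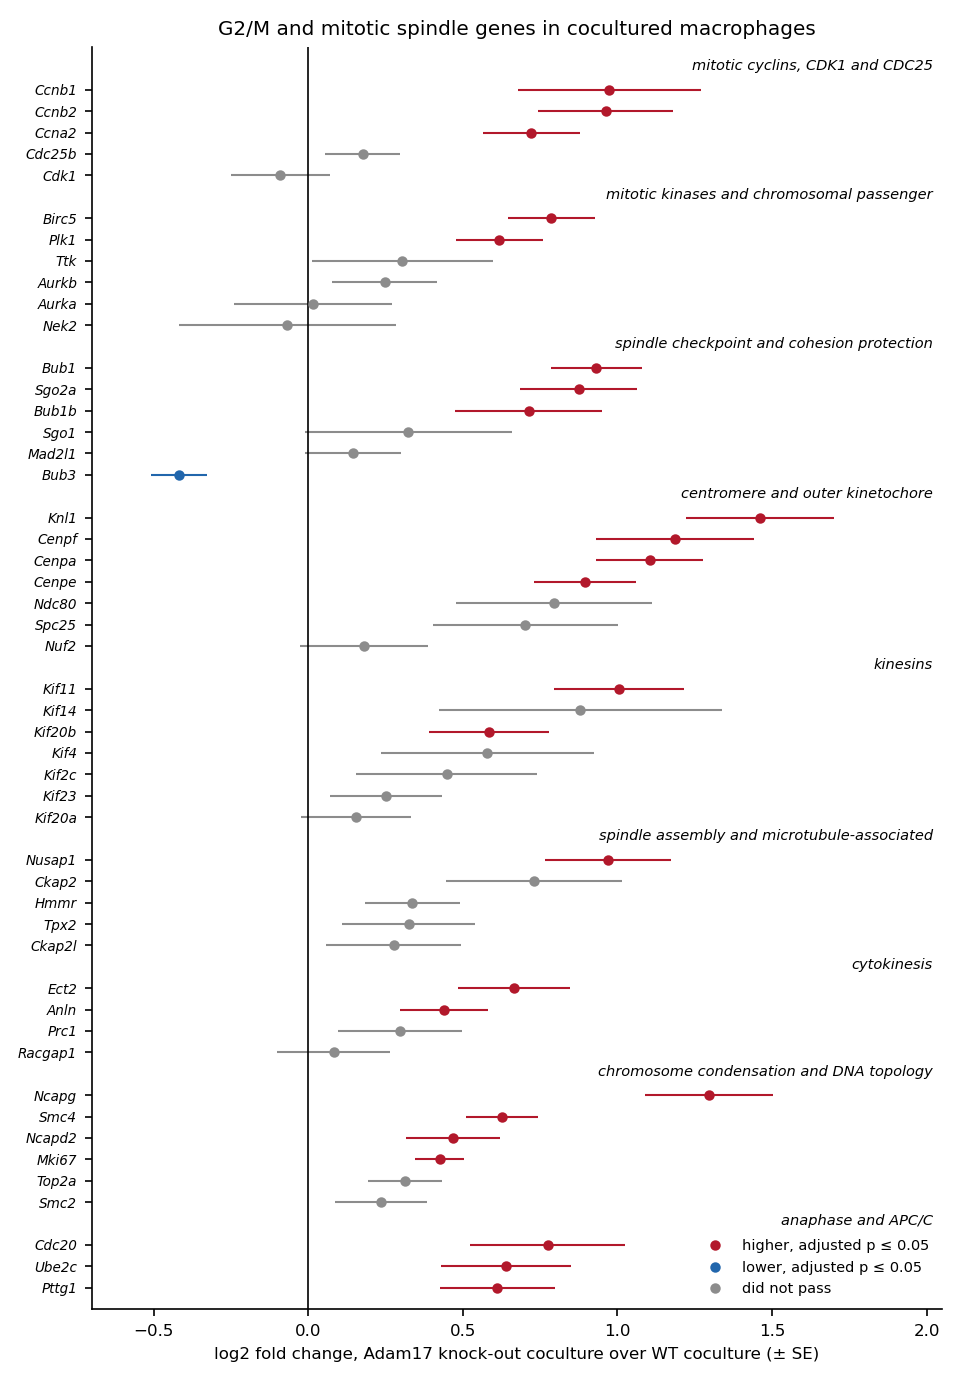
Log2 fold change (± SE) of each of the 49 tested genes in macrophages cocultured with *Adam17*-/- over WT 4T1 cells, in 9 role groups, with n = 2 WT and n = 3 *Adam17*-/- libraries and colour for the result of edgeR's test. Of these genes 24 rose, 1 fell (*Bub3*), and 24 did not pass, and the largest change was that of *Knl1* at 1.46.

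Many of these transcripts were scarce, and scarce genes as a whole leaned upward in these data. Among the 42 genes with a mean under 10 CPM, 21 rose (50%), against 16.5% of the 4089 genes tested at that level. Their groups did not overlap upward in 26 cases, against 36.3% of those genes. The median log2 fold change of the 42 genes was 0.63 and that of all genes under 10 CPM was 0.23. Of the 7 genes at 10 CPM or more, 3 rose and 1 fell, where 14.1% and 22.8% of the 8487 genes tested at that level did.

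**Figure D2:**
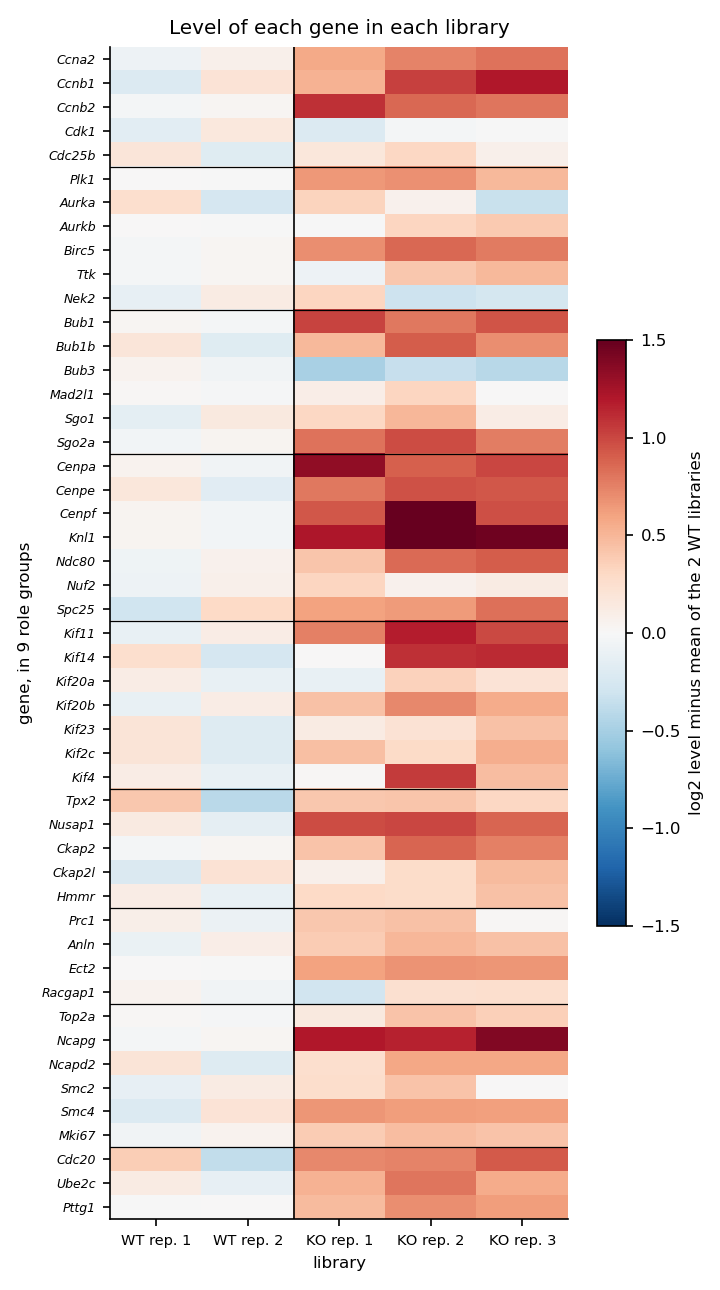
Level of each gene in each library, as log2 level minus the mean of the 2 WT libraries, with genes in rows by role group and libraries in columns (red higher, blue lower, the darkest shades at or past the end of the scale). The median over the 49 genes was 0.42, 0.64, and 0.56 in the *Adam17*-/- libraries, and the row of *Bub3* is blue in all 3.

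The count of 24 moved with the fit. It was 28 with library size only and in both fits of FPKM, where 3019, 2927, and 2867 of all genes rose in place of 1869. It was 16 in DESeq2, where 1581 of all genes rose and *Ccnb1*, *Bub1b*, *Kif20b*, *Ect2*, *Anln*, *Cdc20*, *Ube2c*, and *Pttg1* no longer passed, and 15 with the replicate number as a block, where 1216 of all genes rose and *Ncapd2* did not pass either. It was 15 without *Adam17*-/- replicate 2 and 15 without replicate 3, where 1240 and 1208 of all genes rose. With libraries scaled by size only, 73.7% of all passing genes were higher in place of 46.9%, the median over all genes moved from 0.01 to 0.16, and the median of these genes less that of all genes was 0.57 under both scalings. In the fits of log2(FPKM + 0.1) and log2(FPKM + 1) that difference was 0.45 and 0.22.

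Markers of several cell types moved in the same libraries, where 14.9% of all genes tested rose and 16.8% fell. The 10 macrophage markers summed to 29020 and 28290 CPM in the WT libraries and 18440 to 20500 CPM in the *Adam17*-/- libraries, and 7 of them fell and none rose. Of the 9 late neutrophil markers 8 rose, with sums of 1352 and 1383 CPM in the WT libraries and 2528, 2367, and 2228 CPM in the *Adam17*-/- libraries. Neutrophil precursors divide, and of their 7 markers 3 rose, with sums of 44.6 and 29.9 CPM in the WT libraries and 58.3, 142, and 67.6 CPM in the *Adam17*-/- libraries. The 3 were *Elane*, *Prtn3*, and *Ms4a3*, and *Mpo* did not pass (adjusted p = 0.0581). *Adam17*-/- replicate 2 was the highest, and *Mpo* alone stood at 13.5 and 6.77 CPM against 14.5, 63.2, and 18.5 CPM. Without that library the median log2 fold change of the G2/M and spindle genes was 0.54. Hematopoietic progenitor markers summed to 27.3 and 16.8 CPM in the WT libraries and 22.6, 18.3, and 27.0 CPM in the *Adam17*-/- libraries. Of the 6 tested 2 rose, *Kit* and *Myb*. *Cd34*, the most abundant of the list, and *Meis1* had log2 fold changes of -0.35 and -0.41. *Flt3* and *Gata2* stood at 0.79 and 0.94, and none of these 4 passed. Megakaryocyte and platelet markers summed to at most 55.0 CPM in the WT libraries and to 81.0, 124, and 136 CPM in the *Adam17*-/- libraries, with 5 of 6 higher.

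The rarer cell types left few counts. Of the erythroid markers 2 of 6 were tested and 1 rose, with sums from 1.41 to 2.77 CPM in WT and 3.89 to 4.93 CPM in *Adam17*-/- libraries and *Hbb-bs* at 0 throughout. Mast cell and basophil markers summed to 5.63 to 9.42 CPM and 13.0 to 18.5 CPM. Nearly all of this came from *Gata1* and *Hdc*, the 2 tested, and both rose. *Cpa3*, *Mcpt8*, *Ms4a2*, and *Fcer1a* had at most 6 counts in any library and were not tested. Eosinophil markers summed to 4.82 to 6.80 CPM and 13.7 to 19.0 CPM, with 1 of 3 higher. Lymphocyte markers summed to 3.03 to 4.50 CPM and 4.76 to 5.53 CPM, with 0 of 2 past the test. Of the 11 epithelial markers of mammary carcinoma only *Cdh1* was abundant enough to test and it did not pass (log2 fold change 0.14, adjusted p = 0.422), while *Krt5* was at 0 in all libraries and *Epcam* at 0 in 4 of 5. The part of these cell types in the higher levels of the G2/M genes was not tested, and in bulk RNA more dividing cells and more mitotic RNA per cell cannot be told apart.

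Promoters are shown for the 5 genes that rose with the lowest p to show the elements that late cell cycle promoters are known for. Each stretch runs 5′ to 3′ on the strand of the gene, from 190 bases before the annotated start to 30 after it, from RefSeq on GRCm38.p6. Capitals mark a CHR (TTTGAA or TTCGAA, either strand) or a CCAAT box (CCAAT, or ATTGG on the other strand). *Bub1* (chr2:127831830-127832049, minus strand), *Cenpa* (chr5:30666696-30666915, plus strand), and *Ncapg* (chr5:45669735-45669954, plus strand) hold both elements, with the CHR at positions 15, 17, and -30 from a start counted as 1. In *Knl1* (chr2:119046929-119047148, plus strand) a TTTGAA follows at position 32, past the stretch shown, and in *Birc5* (chr11:117849047-117849266, plus strand) neither set of letters was found.
Bub1: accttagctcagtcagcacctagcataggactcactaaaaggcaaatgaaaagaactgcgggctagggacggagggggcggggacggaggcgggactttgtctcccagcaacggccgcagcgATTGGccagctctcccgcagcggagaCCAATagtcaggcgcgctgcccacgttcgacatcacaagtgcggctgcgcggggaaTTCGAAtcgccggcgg
Cenpa: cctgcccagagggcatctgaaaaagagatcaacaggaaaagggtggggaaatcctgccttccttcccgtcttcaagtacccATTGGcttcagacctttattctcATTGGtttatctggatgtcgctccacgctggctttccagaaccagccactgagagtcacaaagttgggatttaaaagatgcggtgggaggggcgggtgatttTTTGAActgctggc
Ncapg: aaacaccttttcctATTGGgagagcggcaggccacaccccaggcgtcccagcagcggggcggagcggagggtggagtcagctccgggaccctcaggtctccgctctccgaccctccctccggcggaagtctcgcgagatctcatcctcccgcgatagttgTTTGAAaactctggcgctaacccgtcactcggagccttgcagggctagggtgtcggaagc
Knl1: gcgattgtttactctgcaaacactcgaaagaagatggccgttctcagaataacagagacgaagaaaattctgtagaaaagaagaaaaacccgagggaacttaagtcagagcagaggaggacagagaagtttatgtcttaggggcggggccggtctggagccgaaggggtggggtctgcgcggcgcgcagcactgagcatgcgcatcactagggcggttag
Birc5: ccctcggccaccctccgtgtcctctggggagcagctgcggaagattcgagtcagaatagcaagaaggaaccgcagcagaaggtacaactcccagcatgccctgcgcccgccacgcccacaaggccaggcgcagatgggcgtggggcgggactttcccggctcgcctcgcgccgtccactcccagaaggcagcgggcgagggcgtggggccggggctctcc

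Of the 50 genes, 44 matched an entry in the promoter table, with 48 windows of 250 bases before to 50 after the start. *Aurkb*, *Ccna2*, *Cdc25c*, *Kif20a*, *Smc4*, and *Tpx2* had no entry. The CHR letters were in 38 of the 48 windows (79.2%), against 46.7% of 90 windows of other G2/M and mitosis genes (79 of 98 genes matched), 18.6% of 43 windows of DNA replication and S phase genes (37 of 46 matched), and 19.2% of all 32851 promoters. A CCAAT box was in 79.2% of the windows, in 63.3% and 60.5% of those of the same lists, and in 37.4% of all promoters. An E2F element (TTTCGCGC or TTTGGCGC, either strand) was in 4.17% of the windows, in 25.6% of those of the S phase list, and in 0.813% of all promoters. The choice of window mattered for the CHR, which was in 41.7% of the windows cut to the 250 bases before the start and in 17.2% of all promoters cut the same way. The E2F share of the S phase list went from 25.6% to 14.0% with that cut.

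Of 51 CHR matches, counted per window, 35 began within 60 bases of the start (68.6%), against 28.0% of the 7260 matches in all promoters, and 25 began after it. Genes with 2 overlapping windows can hold the same site in both. With each genome position counted once and set against the nearest start, 33 of 47 (70.2%) lay within 60 bases, against 28.6% of 6788. Among the 35 genes with a CHR match 16 rose and the median log2 fold change was 0.58, and among the 9 without one 6 rose and the median was 0.79. Those 9 were *Birc5*, *Ccnb1*, *Cenpe*, *Mad2l1*, *Nek2*, *Nuf2*, *Nusap1*, *Pttg1*, and *Sgo2a*. The difference between these sets was not tested, and a match of letters is a description and not a site shown to be used.

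**Figure D3:**
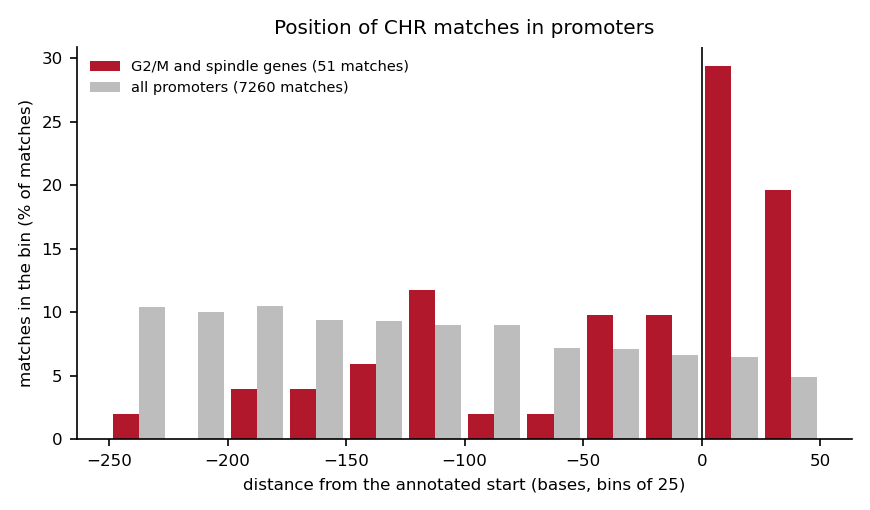
Position of the first base of each CHR match from the annotated start (bases, bins of 25), as percent of matches, counted per window, for the 51 matches in promoters of the G2/M and spindle genes and the 7260 in all promoters. The 2 bins after the start hold 29.4% and 19.6% of the matches of the G2/M genes, and no bin of all promoters holds over 10.5%.

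Among the mitotic cyclins and their regulators, the 3 cyclins rose and the kinase did not (3 of 5 tested, 60%, background 14.9%). *Ccnb1* (cyclin B1) was at 1.15 and 1.57 CPM in the WT libraries and 1.97, 2.83, and 3.23 CPM in the *Adam17*-/- libraries. All 3 *Adam17*-/- libraries were above both WT libraries, and *Ccnb1* rose by 0.97 on the log2 scale (SE 0.30, adjusted p = 0.0328). It no longer passed without WT replicate 1 (adjusted p = 0.133) or *Adam17*-/- replicate 2 or 3 (0.0843 and 0.109). *Ccnb2* (cyclin B2) rose by 0.96 and *Ccna2* (cyclin A2, of S phase and early mitosis) by 0.72. *Cdk1*, the kinase these cyclins activate, was at 6.12 and 7.69 CPM in the WT libraries and 5.91, 6.71, and 6.83 CPM in the *Adam17*-/- libraries. The groups overlapped, and its log2 fold change was -0.09 (SE 0.16, adjusted p = 0.695), which turned to 0.054 with library size only and to 0.079 without WT replicate 2. *Cdc25b*, a CDK1-activating phosphatase, had a log2 fold change of 0.18 (adjusted p = 0.296). Without WT replicate 1 it was 0.36 and passed (adjusted p = 0.0214), and without WT replicate 2 it was 0.0033.

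Of the mitotic kinases and chromosomal passenger genes, 2 of 6 rose (33.3%, background 14.9%). *Birc5* (survivin), which targets Aurora B to centromeres, was at 5.29 and 5.52 CPM in the WT libraries and 8.81, 9.87, and 9.32 CPM in the *Adam17*-/- libraries. The groups were well apart, and *Birc5* rose by 0.79 on the log2 scale (SE 0.14, adjusted p = 0.00354). *Plk1* (polo-like kinase 1), needed for centrosome maturation and mitotic entry, rose by 0.62 (SE 0.14, adjusted p = 0.01). *Nek2*, a kinase of centrosome separation, was at 0.942 and 1.14 CPM in the WT libraries and 1.31, 0.789, and 0.847 CPM in the *Adam17*-/- libraries. Its groups overlapped, and the log2 fold change of -0.07 (SE 0.35, adjusted p = 0.899) changed sign with library size only (0.078). The remaining 3, *Ttk* (MPS1, a checkpoint kinase), *Aurkb* (Aurora B), and *Aurka* (Aurora A, at the spindle poles), had log2 fold changes of 0.30, 0.25, and 0.02 and did not pass. That of *Ttk* was 0.49 without *Adam17*-/- replicate 1 and 0.20 without replicate 3, and that of *Aurkb* was 0.38 without replicate 1. That of *Aurka* was -0.22 without WT replicate 2 and -0.15 without *Adam17*-/- replicate 1.

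The spindle checkpoint and cohesion group split, with 3 of 6 genes higher (50%, background 14.9%) and 1 lower (16.7%, background 16.8%). *Bub1*, a checkpoint kinase at kinetochores, was at 5.08 and 4.87 CPM in the WT libraries and 10.1, 8.68, and 9.64 CPM in the *Adam17*-/- libraries. Even the lowest *Adam17*-/- library was well above the WT libraries, and *Bub1* rose by 0.93 on the log2 scale (SE 0.15, adjusted p = 0.00192), the lowest p among the 49 genes. *Sgo2a*, a shugoshin that protects centromeric cohesion, rose by 0.87, and *Bub1b* (BubR1, part of the checkpoint complex that holds APC/C) by 0.71. *Bub1b* passed narrowly (adjusted p = 0.046) and no longer did without WT replicate 2 or any 1 *Adam17*-/- replicate (adjusted p from 0.0545 to 0.165).

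*Bub3*, which carries BUB1 and BUBR1 to kinetochores, was the exception. It was at 50.6 and 47.0 CPM in the WT libraries and 34.6, 38.4, and 36.5 CPM in the *Adam17*-/- libraries. Every *Adam17*-/- library was below both WT libraries, and *Bub3* fell by 0.42 on the log2 scale (SE 0.09, adjusted p = 0.00813). Without *Adam17*-/- replicate 1 the value was -0.36 and no longer passed (adjusted p = 0.0597). *Sgo1*, the other shugoshin, and *Mad2l1* (MAD2) had log2 fold changes of 0.32 and 0.14 and did not pass. That of *Mad2l1* was 0.073 without *Adam17*-/- replicate 2 and 0.23 without replicate 3, and that of *Sgo1* was 0.16 without WT replicate 1 and 0.49 without WT replicate 2. *Bub3* held most of the counts of its group, which summed to 67.0 and 63.0 CPM in the WT libraries and 59.4, 64.4, and 60.5 CPM in the *Adam17*-/- libraries.

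The centromere and outer kinetochore genes had the highest median log2 fold change of the 9 groups, 0.89, with 4 of 7 higher (57.1%, background 14.9%). Summed, they stood at 16.9 and 16.2 CPM in the WT libraries and 31.9, 31.7, and 31.2 CPM in the *Adam17*-/- libraries, with every *Adam17*-/- library far above both WT libraries. *Knl1* (chr2:119047119-119110497, GRCm38), the kinetochore scaffold that binds BUB proteins, was at 1.20 and 1.14 CPM in the WT libraries and 2.85, 3.49, and 3.39 CPM in the *Adam17*-/- libraries. The lowest of the *Adam17*-/- values was far above the WT values, although these were only 23 and 21 counts, and *Knl1* rose by 1.46 on the log2 scale (SE 0.24, adjusted p = 0.00248). *Cenpf* (chr1:189640606-189688107), a large coiled-coil protein of the outer kinetochore, was at 1.68 and 1.57 CPM in the WT libraries and 3.17, 4.74, and 3.28 CPM in the *Adam17*-/- libraries. It rose by 1.19 on the log2 scale (SE 0.26, adjusted p = 0.00823), and its 3 *Adam17*-/- libraries differed among themselves more than those of *Knl1* did on the CPM scale. On log2(FPKM + 1) it was 0.25 and no longer passed (adjusted p = 0.0542).

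*Cenpa* (chr5:30666877-30674837), the histone H3 variant that marks the centromere, was at 4.92 and 4.55 CPM in the WT libraries and 12, 8.88, and 9.58 CPM in the *Adam17*-/- libraries. Here *Adam17*-/- replicate 1 was the highest, the groups did not overlap, and *Cenpa* rose by 1.11 on the log2 scale (SE 0.17, adjusted p = 0.00194). Without that replicate it was 0.99. *Cenpe*, a kinesin that moves chromosomes to the spindle equator, rose by 0.89. Of the NDC80 complex, which binds microtubule ends, the listed subunits *Ndc80*, *Spc25*, and *Nuf2* did not pass, and the remaining subunit, *Spc24* of the list of other mitosis genes, looked up after its value was seen, rose by 0.55 on the log2 scale (SE 0.12, adjusted p = 0.00791). *Ndc80* and *Spc25* had log2 fold changes of 0.80 and 0.70 (adjusted p = 0.082 and 0.101), with all *Adam17*-/- libraries above both WT libraries in each. That of *Spc25* was 0.40 without WT replicate 1 and 1.06 without WT replicate 2. *Nuf2* was at 2.46 and 2.76 CPM in the WT libraries and 3.28, 2.70, and 2.86 CPM in the *Adam17*-/- libraries. Its groups overlapped, with a log2 fold change of 0.18 (SE 0.21, adjusted p = 0.536). The value was 0.094 without WT replicate 1 and 0.11 without *Adam17*-/- replicate 1.

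Of the 7 kinesins 2 rose (28.6%, background 14.9%). *Kif11* (Eg5, chr19:37376382-37421863), which pushes spindle poles apart, was at 2.20 and 2.60 CPM in the WT libraries and 4.11, 5.53, and 4.87 CPM in the *Adam17*-/- libraries. All *Adam17*-/- libraries were above both WT libraries, and *Kif11* rose by 1.01 on the log2 scale (SE 0.21, adjusted p = 0.00697), at the fold change limit, and by 0.88 without WT replicate 1 and 0.92 without *Adam17*-/- replicate 2. *Kif20b*, a kinesin of late cytokinesis, rose by 0.58 and no longer passed without WT replicate 1 or any 1 *Adam17*-/- replicate (adjusted p from 0.0692 to 0.167). *Kif20a*, which works at the central spindle, was at 6.12 and 5.25 CPM in the WT libraries and 5.25, 7.24, and 6.57 CPM in the *Adam17*-/- libraries. The groups overlapped, with a log2 fold change of 0.15 (SE 0.18, adjusted p = 0.537). The value was 0.045 without WT replicate 2 and 0.30 without *Adam17*-/- replicate 1. The log2 fold changes of the other 4 were 0.88 for *Kif14*, 0.58 for the chromokinesin *Kif4*, 0.45 for *Kif2c* (MCAK, a microtubule depolymerase), and 0.25 for *Kif23* (MKLP1, of the central spindle), and none passed. Without WT replicate 1 *Kif2c* was 0.67 and *Kif23* 0.46, and without WT replicate 2 they were 0.25 and 0.066. *Kif4* was 0.29 without *Adam17*-/- replicate 2. *Kif14* had 9 to 27 counts in a library, and its SE was 0.46.

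In the group of spindle assembly and microtubule-associated genes, 1 of 5 rose (20%, background 14.9%). *Nusap1*, which bundles spindle microtubules, was at 2.25 and 1.84 CPM in the WT libraries and 4.11, 4.14, and 3.81 CPM in the *Adam17*-/- libraries. The groups were well apart, and *Nusap1* rose by 0.97 on the log2 scale (SE 0.20, adjusted p = 0.00725). *Ckap2l*, a spindle protein of dividing cells, was at 2.72 and 3.68 CPM in the WT libraries and 3.34, 3.82, and 4.45 CPM in the *Adam17*-/- libraries. WT replicate 2 was above *Adam17*-/- replicate 1, and the log2 fold change was 0.28 (SE 0.22, adjusted p = 0.355). *Ckap2*, *Hmmr*, and *Tpx2* (the activator of Aurora A) had log2 fold changes of 0.73, 0.34, and 0.33 and did not pass. Within this group the WT libraries differed most for *Tpx2*, at 8.01 and 4.55 CPM, and its value was -0.026 without WT replicate 2 and 0.79 without WT replicate 1, where it passed (adjusted p = 0.00726).

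The cytokinesis genes split evenly, with 2 of 4 higher (50%, background 14.9%). *Ect2*, the exchange factor that activates RhoA at the division plane, was at 2.67 and 2.65 CPM in the WT libraries and 4.11, 4.28, and 4.29 CPM in the *Adam17*-/- libraries. Replicates agreed closely within each group, and *Ect2* rose by 0.66 on the log2 scale (SE 0.18, adjusted p = 0.0214). *Anln* (anillin), a scaffold of the contractile ring, rose by 0.44 (adjusted p = 0.043). Neither passed without WT replicate 1 or any 1 *Adam17*-/- replicate, with adjusted p from 0.0534 to 0.0599 for *Ect2* and 0.0862 to 0.15 for *Anln*. *Racgap1*, which pairs with KIF23 in the centralspindlin complex, was at 7.80 and 7.25 CPM in the WT libraries and 6.13, 8.88, and 8.95 CPM in the *Adam17*-/- libraries. The groups overlapped, with a log2 fold change of 0.08 (SE 0.18, adjusted p = 0.757). The value was 0.265 without *Adam17*-/- replicate 1 and 0.0079 without replicate 3. *Prc1*, which bundles midzone microtubules, was 0.30 (adjusted p = 0.283), and 0.45 without *Adam17*-/- replicate 3.

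Chromosome condensation and DNA topology genes rose in 4 of 6 cases (66.7%, background 14.9%). *Ncapg* (chr5:45669891-45700547), a subunit of condensin I, was at 1.73 and 1.79 CPM in the WT libraries and 4.16, 4.01, and 4.77 CPM in the *Adam17*-/- libraries. The *Adam17*-/- libraries were all over 4 CPM and the WT libraries under 2 CPM, and *Ncapg* rose by 1.30 on the log2 scale (SE 0.21, adjusted p = 0.00209). *Ncapd2*, of the same complex, rose by 0.47, and *Smc4*, a core subunit of condensins I and II, rose by 0.63. *Smc2*, the partner of SMC4, was at 11.6 and 13.9 CPM in the WT libraries and 15.2, 17.1, and 12.8 CPM in the *Adam17*-/- libraries. Its groups overlapped, with a log2 fold change of 0.24 (SE 0.15, adjusted p = 0.252). The value was 0.11 and 0.36 without WT replicates 1 and 2, and 0.15 and 0.36 without *Adam17*-/- replicates 2 and 3. *Ncapd2* no longer passed without WT replicate 2 (log2 fold change 0.29, adjusted p = 0.129) or *Adam17*-/- replicate 2 (0.107) or 3 (0.112).

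*Mki67*, the gene of the proliferation antigen Ki-67 that coats mitotic chromosomes, was at 99.4 and 106 CPM in the WT libraries and 134, 141, and 139 CPM in the *Adam17*-/- libraries. It was the most abundant of the 50 genes by counts, all *Adam17*-/- libraries were above both WT libraries, and it rose by 0.43 on the log2 scale (SE 0.08, adjusted p = 0.00460), the least of the 24 genes that rose. *Top2a* (topoisomerase II alpha), which untangles sister chromatids, was at 14.3 and 14.0 CPM in the WT libraries and 15.7, 19.0, and 18.2 CPM in the *Adam17*-/- libraries. The groups did not overlap, yet the log2 fold change of 0.31 (SE 0.12, adjusted p = 0.0716) did not pass. It did pass with upper quartile factors (adjusted p = 0.0423), with library size only (0.0177), and in limma's fits of FPKM (0.0403 and 0.0381).

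All 3 anaphase and APC/C genes rose (background 14.9%). *Cdc20*, the activator of APC/C, was at 2.77 and 1.62 CPM in the WT libraries and 3.56, 3.62, and 4.13 CPM in the *Adam17*-/- libraries. It rose by 0.77 on the log2 scale (SE 0.25, adjusted p = 0.0406), with WT libraries that differed from each other more than the *Adam17*-/- libraries did. Its log2 fold change was 1.21 without WT replicate 1 and 0.44 without WT replicate 2. *Pttg1* (securin), which blocks separase until anaphase, was at 2.72 and 2.76 CPM in the WT libraries and 3.83, 4.47, and 4.29 CPM in the *Adam17*-/- libraries. The WT libraries were nearly equal and below all *Adam17*-/- libraries, and *Pttg1* rose by 0.61 on the log2 scale (SE 0.19, adjusted p = 0.0330). *Ube2c*, the ubiquitin-conjugating enzyme of APC/C, rose by 0.64 (adjusted p = 0.0436). Leaving out any 1 *Adam17*-/- replicate ended all 3 calls (adjusted p from 0.055 to 0.112). Nor did *Cdc20* pass without WT replicate 2 (0.178), *Ube2c* without WT replicate 1 or 2 (0.0553 and 0.136), or *Pttg1* without WT replicate 1 or 2 (0.0861 and 0.06).

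For levels per length, FPKM values of a gene's transcripts were added. On this scale the mean WT level of the 49 tested genes ran from 0.070 FPKM (*Kif14*) to 22.6 FPKM (*Bub3*), with a median of 1.10 over the genes, and 21 were under 1 FPKM. *Bub3* had 22.6 ± 0.417 FPKM in the WT group and 18.7 ± 0.883 FPKM in the *Adam17*-/- group (SD, n = 2 and n = 3). Next came *Smc4* with 12.6 ± 2.87 FPKM in the WT group and 21.4 ± 0.488 FPKM in the *Adam17*-/- group, and *Cdc25b* and *Mki67* had WT means of 11.2 and 9.64 FPKM. Among the genes past both limits, *Cenpa* had 3.29 ± 0.0212 FPKM in the WT group and 7.72 ± 1.37 FPKM in the *Adam17*-/- group, and *Knl1* had a mean of 0.17 FPKM in the WT group and 0.52 ± 0.053 in the *Adam17*-/- group. Counts of 12 genes were under 30 in at least 1 library, and the lowest was 9.

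**Figure D4:**
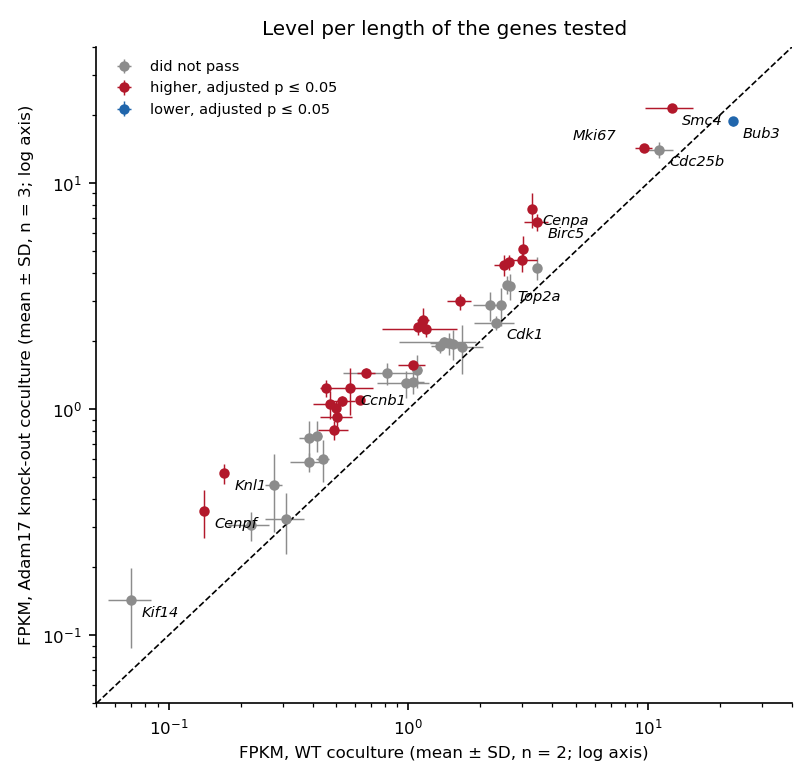
Mean FPKM of each of the 49 tested genes in the *Adam17*-/- group (n = 3) against the WT group (n = 2), with SD bars on log axes and a dashed line at equal levels. Most points lie above the line, *Bub3* (22.6 FPKM in WT) lies below it, and 21 genes are under 1 FPKM in WT.

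Counts of some genes are uncertain. For 8 of them the gene sum was over 0.02 counts from a whole number in at least 1 library, as can happen where reads are divided among genes with shared sequence. Each of the 8 was 0.27 counts or more away in some library, and the other 42 were never over 0.01 away. They were *Birc5*, *Ccna2*, *Cenpf*, *Hmmr*, *Kif11*, *Kif20a*, *Ncapg*, and *Ube2c*. Without these 8 the median log2 fold change was 0.47. Another tested protein-coding gene lies over *Ccna2* (*Exosc9*), *Aurka* (*Cstf1*), *Kif20a* (*Brd8* and *Cdc23*), *Prc1* (*Rccd1*), *Ncapg* (*Lcorl*), and *Cdc20* (*Elovl1*), and whether the counting used strand is not stated.

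The rest of the mitotic programme was set beside these genes in a list of 98 other G2/M and mitosis genes. Of the 90 tested 20 rose (22.2%, background 14.9%) and 3 fell (3.33%, background 16.8%), and the median log2 fold change was 0.25. The lowest p among those higher were those of *Ncapd3*, a condensin II subunit, at 0.60 (SE 0.09, adjusted p = 0.00135) and the kinesin *Kif3a*, which serves cilia and transport, at 0.65 (SE 0.10, adjusted p = 0.00201). *Mad1l1*, which anchors MAD2 at kinetochores, was at 13.5 and 11.7 CPM in the WT libraries and 7.50, 8.82, and 7.04 CPM in the *Adam17*-/- libraries. Like *Bub3* it was lower in every *Adam17*-/- library, and it fell by 0.70 on the log2 scale (SE 0.14, adjusted p = 0.00634). *Fzr1*, the APC/C activator of late mitosis and G1, fell by 0.37 (SE 0.09, adjusted p = 0.0164), and the third to fall was *Tubg1*. At a log2 fold change of 1 or more as well, 5 of the 90 passed as higher, against 3.36% of all genes. Named after their values were seen, they were *Depdc1a* (1.41), *Aspm* (1.32), *Cenpq* (1.12), *Spag5* (1.11), and *Kif15* (1.03). In the WT libraries *Depdc1a* had only 7 and 13 counts and *Cenpq* 10 and 16. Of the transcription factors of this programme, also looked up after the fact, *Mybl2* rose by 0.71 (SE 0.16, adjusted p = 0.00994) and *Foxm1* had a log2 fold change of -0.04 (SE 0.17, adjusted p = 0.869).

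Among 46 tested genes of DNA replication and S phase, 2 rose (4.35%, background 14.9%) and 9 fell (19.6%, background 16.8%), with a median log2 fold change of -0.04. *Mcm3*, of the replicative helicase, was at 46.1 and 42.9 CPM in the WT libraries and 25, 29.4, and 31.6 CPM in the *Adam17*-/- libraries. It fell by 0.64 (SE 0.11, adjusted p = 0.00336), and the licensing factor *Cdt1* fell by 0.61 (SE 0.12, adjusted p = 0.00645). Of the 6 helicase genes *Mcm2* to *Mcm7*, set apart after their values were seen, 5 fell (background 16.8%). These 5 are among the 9 genes of the list that fell. *Tyms* (thymidylate synthase) and *Orc6* were the genes that rose, by 0.45 and 0.57. Library medians on the log2 scale were -0.12, -0.07, and -0.04 relative to WT for this list, where they were 0.42, 0.64, and 0.56 for the G2/M and spindle genes. The difference between the lists was not tested.

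Of 22 tested G1 cyclins, CDKs, and CDK inhibitors 4 rose (18.2%, background 14.9%) and 6 fell (27.3%, background 16.8%), with a median of 0.14. *Ccnd1* (cyclin D1) was at 133 and 93.1 CPM in the WT libraries and 19.9, 17.5, and 28.5 CPM in the *Adam17*-/- libraries. It fell by 2.36 (SE 0.20, adjusted p = 0.000199), and *Myc*, a driver of growth, fell by 1.73 (SE 0.19, adjusted p = 0.000477). *Cdkn1b* (p27), an inhibitor of CDKs, rose by 0.78 (SE 0.11, adjusted p = 0.00105), and *Ccng2* (cyclin G2), which is linked to cell cycle arrest, rose by 0.80 (SE 0.11, adjusted p = 0.00131).

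**Figure D5:**
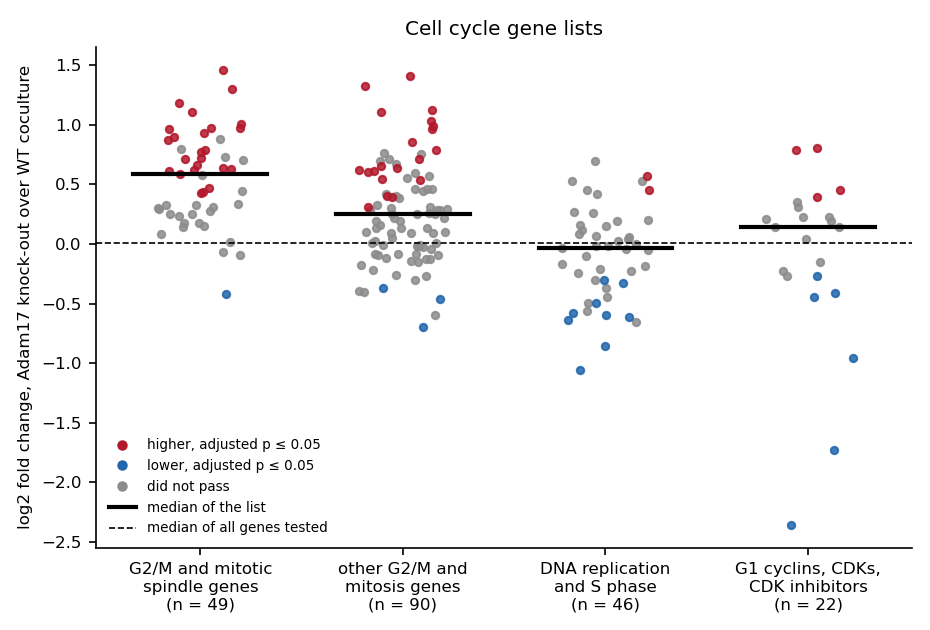
Log2 fold change of every tested gene in 4 cell cycle lists, with the list median as a bar and the median of all genes as a dashed line. Medians were 0.58 for the 49 G2/M and spindle genes, 0.25 for 90 other G2/M and mitosis genes, -0.04 for 46 DNA replication and S phase genes, and 0.14 for 22 G1 genes.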

How the data were processed

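RNA-Seq libraries of 5 BMDM samples (2 WT and 3 *Adam17*-/- cocultures, grouped by the sample labels) were analyzed. Per the study's methods and the submitters' processing notes, poly-A RNA was sequenced by BGI, and the tools named are HISAT, Bowtie, Bowtie2, RSEM, DESeq2, and PoissonDis on GRCm38 (mm10), with versions not given in the sources used here. The deposited values are expected counts of transcripts, which the authors left unnormalized, and FPKM values, which the authors scaled to length and depth. Transcripts under 0.01 FPKM are not listed and were taken as 0.

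For each gene the transcripts' expected counts were added and rounded (14658694 to 20788373 counts per library, so that 3 counts correspond to 0.157 to 0.197 CPM), and edgeR 4.0.16 (R 4.3.3) was used for testing, with TMM factors of 0.920 to 1.05, filterByExpr, glmQLFit, and glmQLFTest. The table of all genes was fitted and Benjamini-Hochberg adjustment ran over all 12576 genes tested. Per-library log2 values used a prior count of 2. No pair of libraries was a duplicate: chi-square per degree of freedom was 25.7 between the WT replicates, 5.22 to 6.32 between *Adam17*-/- replicates, and 44.5 to 84.4 between groups.

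The members, role groups, and lists were chosen with earlier results of these data known, and no set test was run. Values per library are given for members past both limits, the highest and lowest signed log2 fold change in each role group, and *Cdk1*, *Ccnb1*, *Mki67*, and *Top2a*, and of other cell cycle lists the rule names the lowest p in each direction, up to 2, with values per library for the lowest p among those that fell. *Spc24*, *Tubg1*, *Depdc1a*, *Aspm*, *Cenpq*, *Spag5*, *Kif15*, *Mybl2*, *Foxm1*, and the *Mcm2* to *Mcm7* group were named outside the rule, after their values were seen. Promoters came from RefSeq (GRCm38.p6). Alternatives were limma 3.58.1 on log2(FPKM + 0.1) or log2(FPKM + 1), DESeq2 1.42.0, library size only, upper quartile factors, no filter, at least 10 counts in every library, a replicate block, each replicate left out, and a shorter promoter window, and 3 were added after seeing the data (genes under 10 CPM, the median without sums that were not whole, and CHR matches counted once per genome position). The scripts were tested on simulated data. Python 3.11.15, pandas 2.3.3, and matplotlib 3.10.9 were also used.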

Additional observations from a re-analysis of the deposited data

How the results depend on the processing

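Of the 24 genes that rose, 14 passed in all 13 alternatives. The number that rose was 15 with the replicate block, 15 to 20 with a library left out, 16 in DESeq2, 25 with upper quartile factors, and 28 with library size only and in each FPKM fit. The number that fell, 1, was 0 with the replicate block and 0 to 1 with a library left out. Genes past both limits, 5 where 3.36% of all genes were higher past both, were 8 with upper quartile factors (3.88% of all genes), 11 with library size only (5.08%), 1 with log2(FPKM + 1) (0.954%), and 5 to 7 with a library left out (2.60% to 3.49%). The median log2 fold change was 0.73 with library size only, 0.33 with log2(FPKM + 1), 0.47 without the sums that were not whole, and 0.52 to 0.63 with a library left out. The labels do not tie samples by number, and with 2 WT libraries, whose deviations mirror each other, the correlations of same-numbered libraries (r = -0.12 and -0.05) cannot show whether the numbers pair samples.

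Of the other G2/M genes, 12 rose in DESeq2 and 12 with the replicate block (13 to 18 with a library left out), 25 with upper quartile factors, 30 with library size only, and 30 and 29 in the FPKM fits, and 1 fell with library size only, both FPKM fits, and the replicate block (1 to 7). Of S phase genes, 1 rose in DESeq2 and with the replicate block, 4 with upper quartile factors and library size only, and 5 in the FPKM fits. In the FPKM fits and with library size only 5 fell, where 1016, 1011, and 1077 of all genes fell in place of 2114. Without an *Adam17*-/- library 1 to 2 rose and 5 to 7 fell, where 1089 to 1240 and 926 to 1237 of all genes did. The counts of all genes moved with the settings too, and the lists were not tested against them. Of all genes 1581 rose in DESeq2 and 1216 with the replicate block, in place of 1869, and 1126 fell with the block. With upper quartile factors 2237 of all genes rose, with library size only 3019, and in the FPKM fits 2927 and 2867.

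Signs turned for *Cdk1* (0.054 with library size only, 0.062 and 0.043 with FPKM + 0.1 and + 1, and -0.25 to 0.079 with a library left out), *Nek2* (0.078, 0.040, and 0.016 in the same 3 fits, 0.019 with the replicate block, and -0.32 to 0.072), *Aurka* (-0.22 to 0.29 with a library left out), *Tpx2* (-0.026 to 0.79), and *Racgap1* (-0.025 with the block). None of these 5 passed with all libraries. Leaving out 1 library moved the log2 fold change by over 1.5 times for 19 of the 24 genes that did not pass and for 2 of the 25 that passed, *Cdc20* and *Ncapd2*. The causes were not tested. Of the 12 tested genes with under 30 counts in a library, 3 passed (*Knl1*, *Ccnb1*, and *Cenpf*).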
